A study of Mus musculus with 3 samples.

Results

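Trimethylation of histone H3 at lysine 4 (H3K4me3) marks promoters that are active or poised, and most regions that carry it are short and sit around a transcription start. In many cell types a small set of regions is much wider and runs from the promoter into the gene body. Such broad H3K4me3 domains are known from earlier work to lie often at genes that define the identity of the cell, and in neural progenitor cells at genes of neural regulators. Trimethylation at lysine 27 (H3K27me3) is laid down by Polycomb repressive complex 2 and goes with silenced or poised developmental genes, so the regions described here are those with a wide H3K4me3 mark and no Polycomb mark called on it.

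The regions described here are the H3K4me3 regions of chromosomes 1 to 19 that were over 5000 bp wide and shared 0 bp with any H3K27me3 region. There were 418 of them among 21998 H3K4me3 regions in all and among 13985 autosomal H3K4me3 regions without H3K27me3. They came from chromatin immunoprecipitation and sequencing of neurospheres, floating cultures grown from neural stem cells of the subventricular zone of wild-type (WT) male C57BL/6 mice. The series held 1 library precipitated with an antibody to H3K4me3, 1 library precipitated with an antibody to H3K27me3 and 1 input DNA library with no antibody, and the input was not analysed here. No source used here gives the age of the mice or how many were pooled, and the cell type was not checked against marker genes. The regions were chosen by their measured width and by the absence of H3K27me3 on them, so these measures are given as descriptions only.

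With 1 library per mark no value has a replicate error, and no test over samples was possible. Shares are given with exact 95% Clopper-Pearson intervals, and differences of shares with 95% Newcombe intervals. Both cover counting error only and treat regions as independent, which neighbouring regions are not, so they are too narrow. A difference is also given as the number of the 19 autosomes on which it had each direction. Read depth is not known from the region lists, so a missing mark means that no region was called there. Positions are on mm9 and count from 1. Gene annotation and genome sequence of mm9 were not used here, so the regions are named by position alone.

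The 418 broad regions covered 2.74 Mb. They were 2.99% of the autosomal H3K4me3 regions without H3K27me3 and held 8.54% of their base pairs. Of all 589 autosomal H3K4me3 regions over 5000 bp they were 71.0%, and the other 171 overlapped H3K27me3. A further 10 broad regions without H3K27me3 lay on the X chromosome and were left out by the rule. Their widths ran from 5003 to 19697 bp, with a median of 5872.5 bp and an interquartile range of 5409 to 6972 bp. Most were little wider than the threshold. There were 226 regions of up to 6 kb, 133 of 6 to 8 kb, 38 of 8 to 10 kb and 21 above 10 kb. All but 1 (417 of 418, 99.8%) had the top score of 3100 at which the list piles up, and the exception scored 1504. Among the 13567 narrower H3K4me3 regions without H3K27me3 the share at the top score was 59.5%, and it was 99.1% among the 3103 of these that were over 3 kb wide.

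The threshold of 5000 bp fell in a continuous run of widths. The 3 regions just above it were 5003 bp at chr11:77575929-77580931, 5007 bp at chr1:162963348-162968354 and 5013 bp at chr5:145015074-145020086. The 3 just below it were 4997 bp at chr9:108996903-109001899 and 4994 bp each at chr8:83400603-83405596 and chr17:36051971-36056964. All 6 had the top score. Another 761 regions without H3K27me3 were over 4 kb wide but not over 5 kb.

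Only 4 regions were over 15 kb wide. The widest, of 19.7 kb, was chr3:88007890-88027586, followed by chr1:42740403-42759721 with 19.3 kb, chr2:115881007-115899079 with 18.1 kb and chr4:82142074-82159866 with 17.8 kb. No H3K27me3 region lay within 10 kb of any of these 4. The gap to it measured 18.4 kb for the region of chromosome 3, 77.4 kb for that of chromosome 1, 82.7 kb for that of chromosome 2 and 22.3 kb for that of chromosome 4. Other H3K4me3 regions, in contrast, lay close. The nearest was 285 bp away on chromosome 3, 75 bp on chromosome 1, 1054 bp on chromosome 2 and 58 bp on chromosome 4. None of these 4 neighbours overlapped H3K27me3.

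Regions ranked 5 to 10 by width were 14.2 kb at chr7:86642361-86656538, 14.1 kb at chr15:85499012-85513086, 12.9 kb at chr18:81174647-81187574, 12.6 kb at chr13:83863687-83876260, 11.9 kb at chr3:34546637-34558545 and 11.9 kb at chr5:143573939-143585811. They differed widely in their distance to H3K27me3. The region on chromosome 13 had none within 131 kb and the one on chromosome 3 none within 121 kb. The region on chromosome 18 had it at 3.22 kb, with 20.9% of the base pairs within 10 kb of its ends in H3K27me3 regions, and the one on chromosome 5 had it at 1.20 kb.

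The next 10 were between 10.3 and 11.8 kb wide. They lay at chr12:50476335-50488151, chr7:152118911-152130120, chr8:10999468-11010625, chr1:82278889-82289961, chr13:78333359-78344327, chr19:5793731-5804684, chr11:120090160-120100842, chr5:123585163-123595574, chr17:34160275-34170623 and chr16:91220908-91231248. The region on chromosome 17 had the most H3K27me3 nearby among the 20 widest, with 34.1% of the base pairs within 10 kb. The one on chromosome 1 had the nearest H3K27me3 at 137 kb. Of the 20 widest regions, 8 had another H3K4me3 region within 300 bp, and the same count within 1000 bp. Of the 10 widest, 7 had one within 300 bp.

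**Figure D1:**
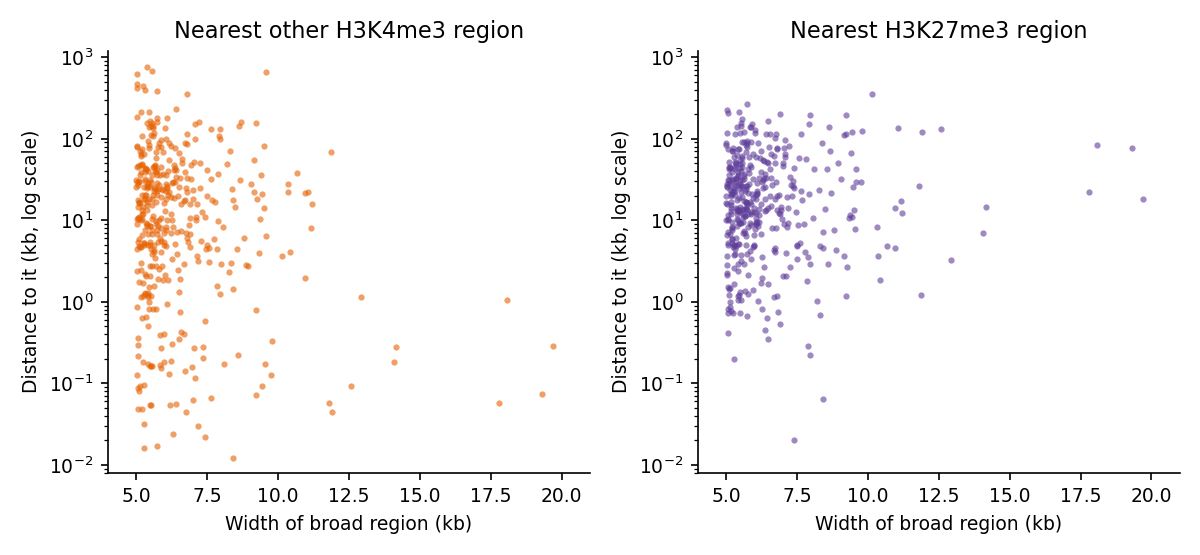
Each point is 1 of the 418 broad H3K4me3 regions without H3K27me3, with its width in kb on the x axis and, on a log scale, the distance in kb to the nearest other H3K4me3 region (left) or the nearest H3K27me3 region (right). Several of the widest regions, up to 19.7 kb, have an H3K4me3 neighbour under 0.3 kb away, while the distances of the 10 widest to H3K27me3 run from 1.20 kb to 131 kb.

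Broad regions were found on every autosome, with 22.0 ± 8.50 per chromosome (mean ± SD over 19 autosomes). Chromosome 11 held the most, with 45, and chromosome 16 the fewest, with 8. The number of other H3K4me3 regions differs between chromosomes too. As a share of all H3K4me3 regions without H3K27me3, broad ones made up 3.02 ± 0.907% (SD over 19 autosomes). The share was 4.73% on chromosome 19 (22 of 465) and 4.38% on chromosome 11 (45 of 1027). It was 1.64% on chromosome 5 (15 of 915) and 1.70% on chromosome 16 (8 of 471). Chromosome 2, with 1129 regions without H3K27me3, the most of any autosome, held only 21 broad ones (1.86%).

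Long stretches held none. The longest stretch between neighbouring broad regions was 54.5 Mb at chr5:34532018-89012084. The next, of 53.1 Mb, lay at chr16:38094104-91220907. Both contained narrower H3K4me3 regions without H3K27me3. On chromosome 5 it was 189 of 900, in 54.5 Mb of the 152.5 Mb up to the last region end. On chromosome 16 it was 182 of 463, in 53.1 Mb of 98.3 Mb. Both stretches thus held fewer of them per Mb than their whole chromosome. They were followed by a stretch of 35.5 Mb at chr4:22419772-57965150 and by another of 31.7 Mb, at chr6:51423377-83085230.

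**Figure D2:**
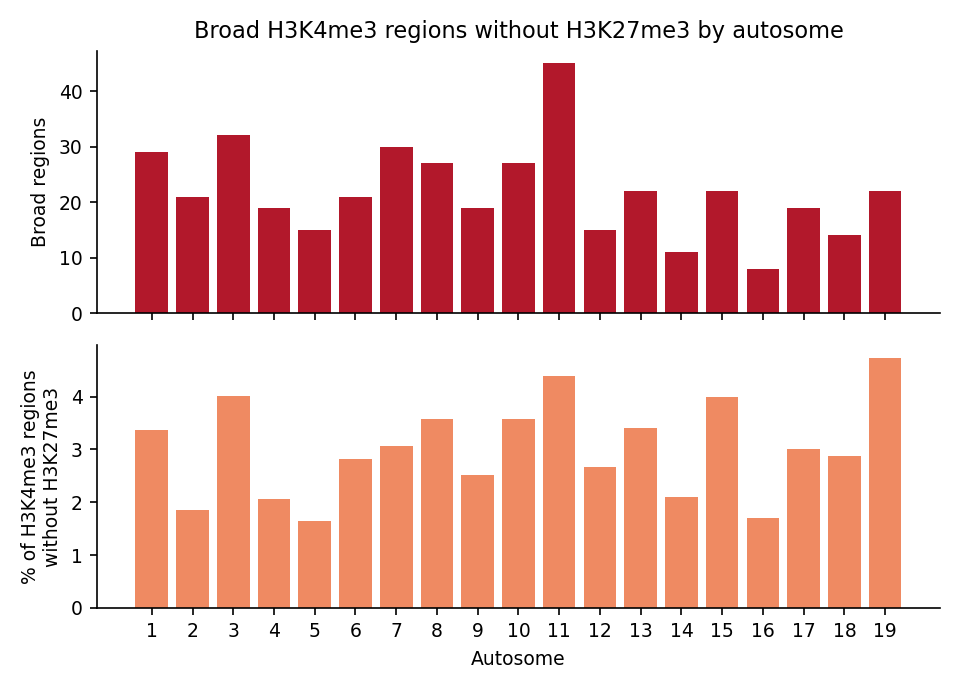
Bars give, for each of the 19 autosomes, the number of broad H3K4me3 regions without H3K27me3 (top) and their percent among all H3K4me3 regions without H3K27me3 on that chromosome (bottom). Chromosome 11 has the highest number (45) and chromosome 19 the highest percent (4.73%), while chromosomes 5 and 16 have the lowest percents.

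Some broad regions lay close to each other. Another broad region was found within 100 kb of 61 of the 418 (14.6%, interval 11.4 to 18.3%) and within 10 kb of 20 (4.78%, 2.95 to 7.29%). Measured to the same targets, 9.06% of narrower regions without H3K27me3 had a broad region within 100 kb and 1.74% within 10 kb. The difference at 100 kb was 5.53 percentage points (interval 2.43 to 9.27), and broad regions had the higher share on 11 of 19 autosomes and the lower share on 8. At 10 kb the difference was 3.05 points (1.36 to 5.54), with the share higher on 6 autosomes and lower on 13. With only 20 such broad regions over 19 autosomes, this count of directions says little about how the excess was spread. Within 1000 kb the shares were 42.1% for broad and 41.0% for narrower regions, a difference of 1.11 points whose interval (-3.61 to 5.96) includes 0. In the pooled counts broad regions thus more often had a broad region within 10 kb or 100 kb than narrower regions did. Their median distance to the nearest broad region was not shorter. It was 1602 kb for broad regions, 1453 kb for narrower ones and 1227 kb for regions of over 3 kb to 5 kb. Of the last class, 44.8% had a broad region within 1000 kb.

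The 61 regions formed 27 groups in which each broad region lay within 100 kb of the next. There were 21 pairs, 5 groups of 3 and 1 group of 4. The group of 4 spanned 163 kb at chr19:5686969-5849722. Its regions were 6.81, 5.47, 11.0 and 9.45 kb wide, and 15 H3K27me3 regions lay inside the span and covered 15.97% of it. The 1 Mb bin chr19:5000001-6000000 held 5 broad regions, the most of any such bin.

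The groups of 3 fell into compact and loose ones. At chr13:83854160-83881964 regions of 9.44, 12.6 and 5.54 kb followed each other within 27.8 kb, with a smallest gap of 92 bp and no H3K27me3 region within 121 kb. At chr3:34536894-34565357 regions of 5.63, 11.9 and 6.77 kb lay within 28.5 kb, with a smallest gap of 44 bp and no H3K27me3 region within 114 kb. Both spans contained no other H3K4me3 region. At chr11:98601326-98637936, 3 regions of 5.11 to 5.43 kb lay within 36.6 kb, and H3K27me3 was 13.2 kb away from the nearest of them. The loose groups were at chr6:125045391-125117919 (72.5 kb) with 1 H3K27me3 region inside, and at chr8:87183391-87299903 (117 kb) with 20 H3K27me3 regions that covered 23.6% of the span.

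H3K4me3 regions of any width were common next to broad regions. Another H3K4me3 region lay within 10 kb of 194 of the 418 broad regions (46.4%, interval 41.6 to 51.3%), against 34.9% (34.1 to 35.8%) of narrower regions without H3K27me3. The difference was 11.5 percentage points (6.67 to 16.3), with the broad share higher on 13 of 19 autosomes. Within 1 kb the shares were 17.5% for broad and 11.0% for narrower regions, a difference of 6.47 points (3.08 to 10.4), higher on 16 autosomes and lower on 3. The median distance to the nearest other H3K4me3 region was 11.6 kb for broad regions and 19.3 kb for narrower ones. Regions of over 3 kb to 5 kb, closest to the broad ones in width and score, were not intermediate. Their median distance was 19.9 kb and their share with a neighbour within 10 kb was 32.0%. At 100 kb the shares were near each other, 90.7% for broad and 89.4% for narrower regions.

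**Figure D3:**
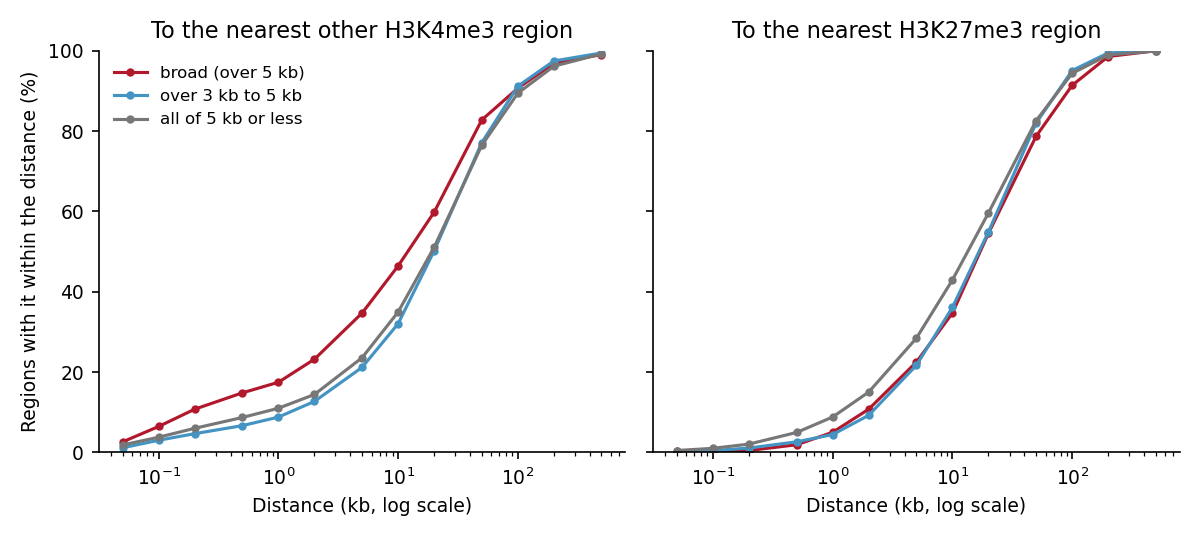
Curves give the percent of regions that have the nearest other H3K4me3 region (left) or the nearest H3K27me3 region (right) within a distance in kb, on a log scale, for 418 broad regions, 3103 regions of over 3 kb to 5 kb and all 13567 regions of 5 kb or less, none with H3K27me3. The broad curve is the highest for H3K4me3 neighbours up to 50 kb and, for H3K27me3, runs next to that of regions of over 3 kb to 5 kb up to 10 kb. At 100 kb the broad curve for H3K27me3 lies lower, at 91.4% against 95.1%.

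The excess of H3K4me3 neighbours within 10 kb of broad regions was seen for neighbours below the top score. An H3K4me3 region below the top score lay within 10 kb of 32.5% of broad regions (interval 28.1 to 37.3%), against 17.6% of narrower ones, a difference of 14.9 points (10.6 to 19.6) with the broad share higher on 16 autosomes. For neighbours at the top score the shares were 21.3% for broad and 22.3% for narrower regions, and the interval of the difference ran from -4.76 to 3.20 points. When only top-scoring H3K4me3 regions were kept on all sides, the share with a neighbour within 10 kb was 21.1% for broad and 20.6% for narrower regions, so the excess of neighbours was not seen among them. Where the nearest H3K4me3 region was within 1 kb (73 broad regions), its median width was 1192 bp, and 23.3% of these neighbours (interval 14.2 to 34.6%) were at the top score. Only 5 of the 73 were broad themselves.

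H3K27me3 was found on a minority of these neighbours. Of the 194 nearest H3K4me3 regions within 10 kb of a broad region, 16 (8.25%, interval 4.79 to 13.0%) overlapped H3K27me3. The share was 18.7% for the nearest neighbours of narrower regions and 14.6% for those of regions of over 3 kb to 5 kb. These are shares among nearest neighbours, and broad regions had more neighbours in all. Counted per region, an H3K4me3 region with H3K27me3 lay within 10 kb of 6.22% of broad regions, 6.06% of regions of over 3 kb to 5 kb and 8.01% of all narrower regions, and the interval of the last difference (-3.79 to 0.982 points) includes 0. Among nearest neighbours within 1 kb the share was 2 of 73 (2.74%, 0.334 to 9.55%), against 10.9% for neighbours of narrower regions. No broad region without H3K27me3 had a broad region with H3K27me3 within 10 kb (0 of 418, interval up to 0.879%). The share was also low for narrower regions (0.509%) and regions of over 3 kb to 5 kb (0.258%), both below that upper limit. Within 100 kb 7 had one (1.67%), against 2.97% of narrower regions.

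Joining H3K4me3 regions over gaps of up to 1000 bp showed how far the marked stretches extended. The 418 regions then lay in 413 stretches, of which 345 were the broad region alone, 54 held 2 H3K4me3 regions, and 14 held 3 to 5. Stretches over 10 kb numbered 34, against 21 single regions over 10 kb, and stretches over 15 kb numbered 11, against 4. The longest was 31.5 kb at chr1:42740403-42771874 and was made of 4 H3K4me3 regions. The next were 27.8 kb at chr13:83854160-83881964 (3 regions), 26.4 kb at chr3:88003305-88029705 (4 regions) and 20.1 kb at chr15:85494343-85514396 (5 regions). A stretch of 19.3 kb at chr12:50474698-50494019 was made of 4. These 5 stretches shared 0 bp with H3K27me3. Of the 413 stretches, 4 shared any base pair with H3K27me3. The 345 made of the broad region alone could share none, by the rule. These 4 were therefore among the 54 stretches of 2 regions and the 14 of 3 to 5 by construction.

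H3K27me3 lay near a minority of the broad regions. It was within 10 kb of 145 of 418 (34.7%, interval 30.1 to 39.5%) and within 1 kb of 21 (5.02%, 3.14 to 7.58%). The nearest approach was 20 bp, and 2 regions had it within 100 bp. In narrower regions without H3K27me3 the shares were 42.9% within 10 kb and 8.82% within 1 kb. The difference was -8.24 percentage points within 10 kb (interval -12.7 to -3.48), with the broad share lower on 13 of 19 autosomes and higher on 6. Within 1 kb it was -3.80 points (-5.58 to -1.22), with the broad share lower on 14 autosomes. Wider regions had to be free of H3K27me3 over more base pairs to be chosen. How far this shaped both differences was not tested.

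The share was already lower from 3 kb upwards, below the threshold of 5000 bp. Of regions without H3K27me3 of up to 1 kb 44.3% had H3K27me3 within 10 kb, of those of over 1 kb to 2 kb 47.7%, and of those of over 2 kb to 3 kb 43.0%. From 3 kb upwards the share was 35.9% for 3 to 4 kb, 36.8% for 4 to 5 kb, 34.1% for 5 to 6 kb, 35.3% for 6 to 8 kb, 34.2% for 8 to 10 kb and 38.1% above 10 kb. Against regions of over 3 kb to 5 kb the difference of broad regions was -1.41 points, and its interval (-6.13 to 3.57) includes 0. Across the 418 broad regions width and distance to H3K27me3 had a Spearman rho of 0.04, given as a description. For H3K4me3 neighbours within 10 kb the share was 36.0% up to 1 kb, 39.3% for 1 to 2 kb and 32.7% for 2 to 3 kb. It was lowest at 31.0% for 3 to 4 kb, and then 35.2% for 4 to 5 kb, 44.7% for 5 to 6 kb, 45.1% for 6 to 8 kb, 50% for 8 to 10 kb and 66.7% (14 of 21, interval 43.0 to 85.4%) above 10 kb.

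**Figure D4:**
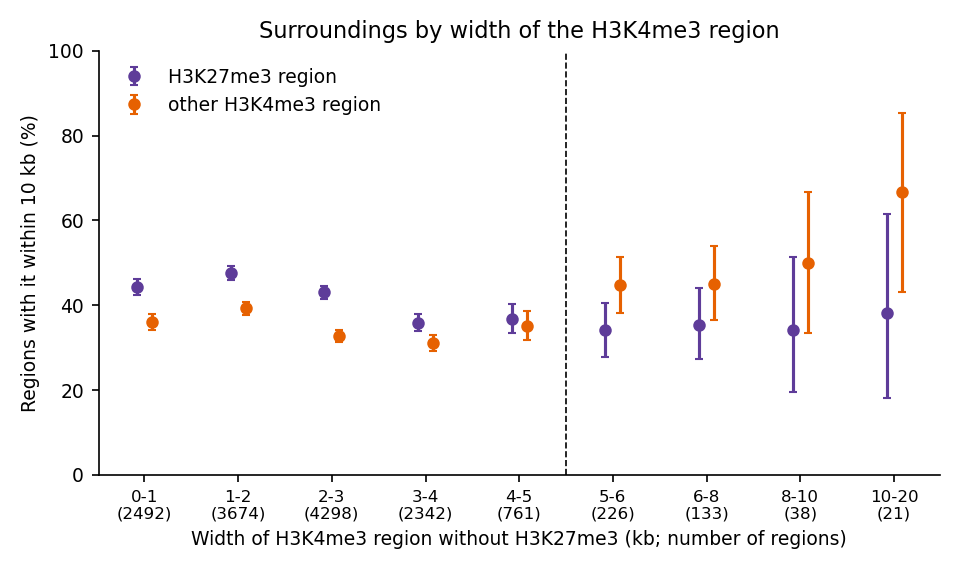
Points give the percent of H3K4me3 regions without H3K27me3 that have an H3K27me3 region (purple) or another H3K4me3 region (orange) within 10 kb, by width class in kb, with the number of regions in brackets and 95% Clopper-Pearson intervals as bars. The dashed line marks the threshold of 5 kb, where the share with H3K27me3 stays near 35% and the share with H3K4me3 lies at 44.7% or more in each class above it.

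The amount of H3K27me3 around the broad regions grew with distance. Within 1 kb of their ends 1.08 ± 1.29% of base pairs lay in H3K27me3 regions (pooled value, SD over 19 autosomes). Between 1 and 5 kb it was 3.83 ± 2.23%, and between 5 and 10 kb 4.51 ± 2.60%. Farther out it reached 8.05 ± 4.51% between 10 and 50 kb, 10.2 ± 5.13% between 50 and 100 kb and 11.2 ± 4.01% between 100 and 500 kb. Over all autosomes 6.01% of base pairs lay in H3K27me3 regions, so the broad regions sat in surroundings that were low in H3K27me3 next to them and above the autosomal mean from 10 kb outwards. The narrower regions followed the same course, from 2.43 ± 0.496% within 1 kb to 10.003 ± 2.97% at 100 to 500 kb. Within 1 kb broad regions had the lower value on 15 of 19 autosomes, and at 100 to 500 kb the higher value on 14. Regions of over 3 kb to 5 kb had 1.15% within 1 kb and 11.8% at 100 to 500 kb, which differed from the broad regions by less than the SD between autosomes. Part of the low value at the ends is set by the choice of regions free of H3K27me3. All 3 classes share this choice, but over unlike widths, with a median of 5872.5 bp for broad and 2160 bp for narrower regions. How far this set the differences between the classes was not tested.

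**Figure D5:**
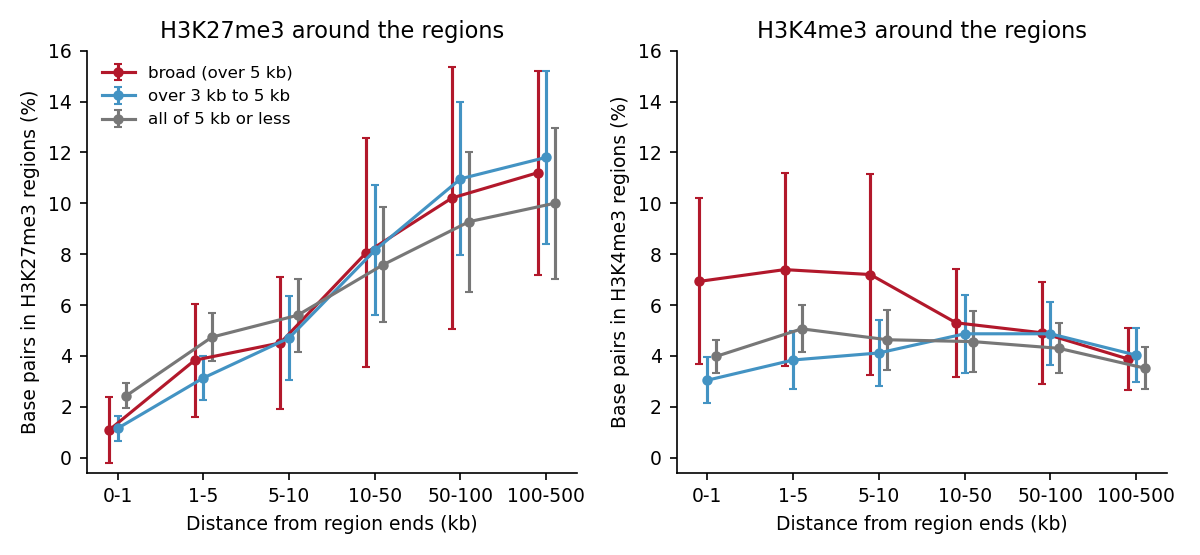
Points give the percent of base pairs in H3K27me3 regions (left) and H3K4me3 regions (right) by distance in kb from the ends of broad regions, of regions of over 3 kb to 5 kb and of all regions of 5 kb or less, none with H3K27me3, and bars give the SD over 19 autosomes. H3K27me3 around broad regions goes from 1.08% within 1 kb to 11.2% at 100 to 500 kb, next to the other classes, while H3K4me3 within 10 kb is highest around broad regions, with wide bars.

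H3K4me3 around the broad regions stayed level up to 10 kb and was lower farther out. It took up 6.93 ± 3.27% of base pairs within 1 kb, 7.39 ± 3.79% between 1 and 5 kb and 7.20 ± 3.94% between 5 and 10 kb. Farther out it was 5.30 ± 2.12% between 10 and 50 kb, 4.91 ± 2.01% between 50 and 100 kb and 3.88 ± 1.22% between 100 and 500 kb. Around narrower regions it took up 3.98 ± 0.636% within 1 kb, 5.06 ± 0.923% between 1 and 5 kb and 3.52 ± 0.813% at 100 to 500 kb. Regions of over 3 kb to 5 kb had 3.04 ± 0.910% within 1 kb, 4.87 ± 1.53% between 10 and 50 kb and 4.03 ± 1.05% at 100 to 500 kb. Broad regions had the higher value on 16 of 19 autosomes within 1 kb and on 10 at 100 to 500 kb.

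Where H3K27me3 lay within 10 kb of a broad region it was mostly on 1 side. It was on both sides of 30 regions (7.18%, interval 4.89 to 10.1%) and on 1 side only of 115 (27.5%). The same held for narrower regions, with 9.91% on both sides and 33.0% on 1 side only. For regions of over 3 kb to 5 kb the shares were 5.12% and 31.0%. The interval of the broad minus narrower difference for both sides (-4.90 to 0.196 points) includes 0. The H3K27me3 regions nearest to broad regions were small, with a median width of 790 bp and a median score of 83.9. The medians over all autosomal H3K27me3 regions were higher, at 879 bp and 112. H3K27me3 regions were then joined over gaps of up to 3 kb. The nearest one stood alone for 304 of the 418 (72.7%) and belonged to a domain of 10 kb or more for 30 (7.18%). The H3K27me3 regions nearest to narrower regions are not described here, so these traits are not shown to be particular to broad regions. A domain of 10 kb or more lay within 10 kb of 20 broad regions (4.78%), against 6.59% of narrower regions, and within 100 kb of 158 (37.8%), against 33.8%. For regions of over 3 kb to 5 kb the shares were 6.19% and 39.0%, so the higher share within 100 kb was not particular to broad regions.

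A few broad regions bordered dense H3K27me3. Over 25% of the base pairs within 10 kb were in H3K27me3 regions for 11 of the 418. The most was 74.2%, for a region of 5.07 kb at chr8:12394003-12399072 with H3K27me3 at 0.728 kb. The next were 57.8% at chr19:5727112-5732586, 46.4% at chr2:93027037-93032095, 42.5% at chr6:94644638-94652047 and 37.7% at chr17:23809718-23815015. The region on chromosome 6 was the one with H3K27me3 at 20 bp. The region on chromosome 8 had an H3K4me3 neighbour 361 bp away that carried H3K27me3 over 968 of its 2906 bp.

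At the other end, 273 broad regions had 0 bp of H3K27me3 within 10 kb, and 36 had no H3K27me3 region within 100 kb. H3K27me3 lay within 100 kb of 91.4% of broad regions, 94.4% of narrower regions and 95.1% of regions of over 3 kb to 5 kb. Broad minus narrower was -2.99 points (interval -6.09 to -0.628), with the broad share lower on 13 of 19 autosomes. Within 10 kb the shares were 34.7%, 42.9% and 36.1%. The farthest broad region was one of 10.2 kb at chr4:97438066-97448224, with the nearest H3K27me3 at 351 kb. Others lay at 265 kb at chr14:12384295-12390026, 224 kb at chr9:85217743-85222777, 213 kb at chr19:26678010-26683470 and 205 kb at chr11:16651232-16656291. Of these 5, the regions on chromosomes 14, 9 and 19 also had no H3K4me3 region within 100 kb, and those on chromosomes 4 and 11 had one at 3.63 kb and 0.215 kb. Broad regions with and without an H3K4me3 neighbour within 10 kb had overlapping intervals for H3K27me3. It lay within 10 kb of 34.0% (27.4 to 41.2%) of those with such a neighbour and of 35.3% (29.0 to 41.9%) of those without. Among narrower regions the shares were 47.7% with a neighbour and 40.4% without.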

How the data were processed

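Per the deposited files, each antibody library has a list of regions with start, end, a MACS peak name and a score. The score is the authors' own value per region. Its scale is not stated, and it was used only within a list. The submitters' processing notes name Bowtie 1.1.2 and the build mm9. MACS version, threshold and control were not given in the sources used here.

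From these lists the regions over 5000 bp with 0 bp shared with H3K27me3 were taken on chromosomes 1 to 19. A check with bedtools 2.31.1 differed by 0 regions. Distances are gaps between region ends. Flank shares are base pairs in regions of a mark over all base pairs in the window on both sides, cut at the last region end of the chromosome. Interval functions gave 0 errors on 600 simulated regions. The tools were SciPy 1.17.1, pandas 2.3.3 and NumPy 2.4.6 under Python 3.11.15, with matplotlib 3.10.9 for plots.

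The regions and the comparisons were chosen with earlier results of these data known. Regions named are the 20 widest, the 5 with most H3K27me3 within 10 kb, the 5 farthest from it, groups of 3 or more within 100 kb, and the 3 on each side of the width threshold. Joined stretches and 1 Mb bins were named after their values were seen. Gene, promoter and miRNA tables at hand are of GRCm38.p6 and were not joined to mm9 positions. Alternatives were other widths, scores, joining gaps, overlaps and comparison classes.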

Additional observations from a re-analysis of the deposited data

How the results depend on the processing

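The number of broad regions, 418 as reported, was 1179 over 4000 bp and 192 over 6000 bp, and 582 with H3K4me3 regions joined over 1000 bp. The share with H3K27me3 within 10 kb, 34.7%, was 22.1% when only the upper 50% of H3K27me3 regions by score were used for the choice and the surroundings, 20.1% when they were used for the surroundings only, and 26.3% with distances from region centres, which shortens the reach of wide regions by construction. The share with another H3K4me3 region within 10 kb, 46.4%, was 39.2% over 4000 bp, 21.1% among top-scoring H3K4me3 regions, 35.9% with joined regions and 39.0% from centres. The share with another broad region within 100 kb, 14.6%, was 23.7% over 4000 bp, where there are more regions to meet. The H3K27me3 difference of -8.24 points was -4.16 (interval -7.80 to -0.0746) and -4.57 (-8.21 to -0.406) with the upper 50% of H3K27me3 regions for choice and surroundings or for surroundings only, -13.8 from centres and -1.41 against regions of over 3 kb to 5 kb, a class added after seeing the data. The H3K4me3 difference of 11.5 points was 4.26 over 4000 bp, 6.39 from centres and 0.533 among top-scoring regions, and the cause was not tested. Neither of these differences changed sign under the alternatives run, and the other differences were run under none. No paired analysis was possible because there was 1 library per mark. Depth is not known, so the absence of a mark has no detection limit.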

Other observations

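The 171 autosomal broad regions with H3K27me3 had H3K4me3 neighbours about as often as those without it, but the neighbours more often carried H3K27me3. Their median width was 5717 bp, against 5872.5 bp for the 418 without H3K27me3. Of the 171, 46.2% had another H3K4me3 region within 10 kb (interval 38.6 to 54.0%), against 46.4% (41.6 to 51.3%) of the 418 without H3K27me3. An H3K4me3 region that carried H3K27me3 lay within 10 kb of 22.8% of them (16.7 to 29.8%), and of 6.22% (4.10 to 8.98%) of the 418. They also had H3K27me3 over 22.75 ± 9.38% of the base pairs within 10 kb of their ends (SD over 19 autosomes). H3K27me3 on these regions chose the class, so this flank value and the share with a neighbour that carried H3K27me3 are descriptions only.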
